A study of Mus musculus with 50 samples.

Results

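The 7 genes described here encode postsynaptic scaffolds (Dlg4, Homer3), subunits of calcium-dependent enzymes (Camk2a, Camk2b, Ppp3ca), a calmodulin-binding protein (Nrgn) and a tyrosine phosphatase (Ptpn5). They were chosen by name, with earlier results of these data known. Each is measured by the probe sets that the platform annotation assigns to it and to no other gene. The members are 7 of the 8252 genes with such a probe set. That rule found 9 of the 12488 probe sets on the array: 1 each for Dlg4, Homer3, Camk2b, Nrgn and Ppp3ca, and a pair each for Camk2a and Ptpn5. Of the Camk2a pair, the probe set with the higher mean in every group on the log2 scale is called the brighter one. Of these, 8 passed the filter on low signals and were tested. The other Ptpn5 probe set did not pass: its group means lay between 41.6 and 82.5 and its largest single signal was 222.1, so it is not described further.

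All values come from brain tissue of mice 8 weeks old, hybridised to Affymetrix arrays. The groups are S1P2-KO hippocampus (10 arrays), S1P3-KO hippocampus (5), wild-type hippocampus (10), S1P2-KO neocortex (10), S1P3-KO neocortex (5) and wild-type neocortex (10). S1P2-KO and S1P3-KO mice lack a cell surface receptor for sphingosine 1-phosphate, a signalling lipid. Sporadic seizures were reported in S1P2-KO mice between 4 and 7 weeks of age and not in S1P3-KO mice, so the comparisons ask which transcripts go with the loss of either receptor and which with the genotype that had seizures. Males and females number 5 each in S1P2-KO and wild-type groups, and S1P3-KO groups hold 2 males and 3 females. The knockout alleles and the genetic background are not given in the sources used here. The titles give the S1P3-KO arrays that name, while the design text lists S1P2-deficient mice in their place, and the titles were followed. The titles call the replicates biological and do not say whether the 2 tissues came from the same mice.

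Behind the membrane of an excitatory synapse, scaffold proteins hold glutamate receptors in place and connect them to enzymes that respond to calcium. PSD-95, encoded by Dlg4, anchors NMDA receptors and, through auxiliary subunits, AMPA receptors, while Homer proteins tie metabotropic glutamate receptors to calcium release from internal stores. Calcium that enters through NMDA receptors binds calmodulin, which activates the kinase CaMKII (alpha and beta subunits from Camk2a and Camk2b) and the phosphatase calcineurin (catalytic subunit from Ppp3ca). Neurogranin, from Nrgn, binds calmodulin when calcium is low, and the tyrosine phosphatase STEP, from Ptpn5, opposes the surface expression of glutamate receptors. In hippocampus and neocortex these proteins are known for their part in lasting changes of synaptic strength.

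The 250 bases before the start of transcription are shown for Homer3 and Camk2b, the members with the clearest difference between tissues, and for Nrgn, the member with the smallest p-values in the knockouts. They come from RefSeq on build GRCm38.p6, in which 5 of the 7 genes were matched, and are written 5′ to 3′ on the strand of the gene. Capitals mark the GC box GGGCGG on either strand. The Homer3 window is chr8:70282749-70282998 on the plus strand, the Camk2b window is chr11:6065749-6065998 on the minus strand, and the Nrgn window is chr9:37552746-37552995 on the minus strand.
Homer3: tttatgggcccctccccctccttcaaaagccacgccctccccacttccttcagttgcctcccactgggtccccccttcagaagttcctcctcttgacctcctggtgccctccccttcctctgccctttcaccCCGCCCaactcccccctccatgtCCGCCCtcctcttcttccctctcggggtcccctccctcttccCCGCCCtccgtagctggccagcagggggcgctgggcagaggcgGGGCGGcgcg
Camk2b: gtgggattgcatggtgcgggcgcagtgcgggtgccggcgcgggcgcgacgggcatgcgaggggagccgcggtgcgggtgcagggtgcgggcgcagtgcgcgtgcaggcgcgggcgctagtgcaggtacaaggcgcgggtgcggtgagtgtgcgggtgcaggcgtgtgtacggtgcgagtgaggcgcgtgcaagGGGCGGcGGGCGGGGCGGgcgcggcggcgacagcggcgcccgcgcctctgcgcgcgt
Nrgn: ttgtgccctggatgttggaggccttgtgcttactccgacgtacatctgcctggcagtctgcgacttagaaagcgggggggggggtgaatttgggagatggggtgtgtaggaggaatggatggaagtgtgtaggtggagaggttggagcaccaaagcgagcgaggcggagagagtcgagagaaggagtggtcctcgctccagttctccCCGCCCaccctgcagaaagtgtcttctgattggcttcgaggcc
Homer3 held 4 GC boxes and was 68% G or C. Camk2b held 3, a pair of which share a base, and was 78.4% G or C, and Nrgn held 1 and was 58.4% G or C. Of 32851 promoters of the same length, 32.7% held at least 1 GC box. The letters of a cyclic AMP response element (TGACGTCA, in 1.55% of promoters) and of a TATA box (TATAAA, in 12.4%), searched on both strands, are not in these 3 windows.

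Levels are given as MAS5 signals, which are linear, and differences are log2 estimates ± SE on log2(signal + 30.7) from limma fitted over 8534 probe sets. A call means a Benjamini-Hochberg adjusted p under 0.05 over all of them. RNA integrity was followed by a control ratio, the log2 of 3' over 5' signal averaged over the Gapdh and beta-actin control probe sets. It lay between 0.00836 and 0.606 on all 25 neocortex arrays and exceeded 1 on 3 hippocampus arrays: S1P2-KO replicate 7 (1.37), S1P3-KO replicate 5 (4.46) and wild-type replicate 4 (1.20). S1pr2, the gene of S1P2, averaged 542 ± 144 in S1P2-KO hippocampus and 649 ± 173 in wild-type hippocampus (SD, n = 10 each; -0.24 ± 0.16, limma adjusted p = 0.925), and in neocortex the difference was -0.10 ± 0.14 (adjusted p = 0.874). S1pr3, the gene of S1P3, differed by -0.69 ± 0.18 in S1P3-KO against wild-type hippocampus (adjusted p = 0.164) and by -0.26 ± 0.17 in neocortex (adjusted p = 0.638). None of the 4 differences passed the test. Where these probe sets lie relative to the deleted parts is not given in the sources used here, and S1P2-KO and S1P3-KO name the arrays as labelled. The labelled tissues did separate by markers of hippocampal granule and pyramidal cells. The summed signal of the 6 measured markers of 8 ran from 6966 to 9092 in S1P2-KO hippocampus against 3274 to 4363 in S1P2-KO neocortex, from 6746 to 9386 in S1P3-KO hippocampus against 3335 to 4353 in S1P3-KO neocortex, and from 6257 to 8847 in wild-type hippocampus against 2732 to 4135 in wild-type neocortex.

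Most of the tested member probe sets differed between hippocampus and neocortex, in both directions. Homer3, Camk2b and Ppp3ca were higher in hippocampus in all 3 genotypes and Ptpn5 was lower in all 3. Nrgn was lower in hippocampus in S1P2-KO and wild-type mice, and Dlg4 and 1 probe set of Camk2a were lower in S1P3-KO mice. In S1P2-KO mice 5 of the 8 tested probe sets were called, against 14.7% of all probe sets. In S1P3-KO mice 6 of 8 were called, against 12%, and in wild-type mice 5 of 8, against 14.6%. The 6 in S1P3-KO mice include the Dlg4 call, which was lost in 7 of 10 omissions of single arrays. Because the members were chosen with earlier results of these data known, these shares are a description and not a test. The median difference of the 8 was -0.59 in S1P2-KO, -0.46 in S1P3-KO and -0.53 in wild-type mice, with medians over all probe sets of 0.02, -0.00456 and 0.00575.

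Homer3, a member of the Homer family, had the largest called difference between tissues of the members in S1P2-KO and wild-type mice. Its signal had a lowest, median and highest value of 1081, 1242 and 1468 in S1P2-KO hippocampus, against 291.4, 413.9 and 519.3 in S1P2-KO neocortex. In S1P3-KO mice the hippocampus arrays gave 1645, 898.2, 1177, 1317 and 968.0, against 349.4, 511.8, 343.6, 349.1 and 354.1 in neocortex. In wild-type mice they were 896.5, 1108 and 1298 in hippocampus, against 185.9, 294.7 and 605.7 in neocortex. Every hippocampus array lay above every neocortex array of its genotype. The log2 difference was 1.60 ± 0.14 in S1P2-KO, 1.58 ± 0.19 in S1P3-KO and 1.70 ± 0.14 in wild-type mice (limma adjusted p = 2.05e-13, 1.69e-08 and 2.56e-14), or 3.0- to 3.25-fold. Prkcd, a protein kinase C isoform used here as a thalamus marker, was also higher in hippocampus (0.85 ± 0.11 in S1P2-KO, 0.49 ± 0.16 in S1P3-KO and 0.83 ± 0.11 in wild-type mice, limma adjusted p = 1.04e-07, 0.0393 and 1.5e-07). Its signal was 1387 to 2316 in S1P2-KO hippocampus against 765.5 to 1230 in S1P2-KO neocortex, and 1272 to 1872 in wild-type hippocampus against 620.7 to 1499 in wild-type neocortex. In S1P3-KO mice it was 985.6 to 1662 in hippocampus against 753.4 to 1278 in neocortex. Prkcd was the only 1 of 4 tested thalamus markers called in each genotype. The summed signal of the 5 measured thalamus markers of 6 was 3140 to 4825 in S1P2-KO hippocampus against 2385 to 3676 in S1P2-KO neocortex, and 2168 to 3532 in S1P3-KO hippocampus against 2159 to 3277 in S1P3-KO neocortex. In wild-type mice it was 2843 to 4169 in hippocampus against 2029 to 3343 in neocortex. The part of thalamic tissue in the Homer3 difference was not tested. In bulk tissue, fewer cells of a type and less RNA per cell cannot be told apart.

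Dlg4, which encodes the scaffold PSD-95, had a wide spread in hippocampus. Its lowest, median and highest signals were 56.4, 3146 and 4307 in S1P2-KO hippocampus, against 3186, 5430 and 6990 in S1P2-KO neocortex. The S1P3-KO hippocampus arrays gave 2032, 3288, 777.6, 1683 and 88.3, against 5095, 4904, 5612, 3530 and 3784 in S1P3-KO neocortex. In wild-type mice they were 400.4, 4111 and 5840 in hippocampus, against 2093, 4094 and 5527 in neocortex. All 5 S1P3-KO hippocampus arrays lay below all 5 of neocortex, while the tissues overlapped in the other two genotypes. The difference was -2.07 ± 0.69 in S1P3-KO mice (adjusted p = 0.0406; -1.42 and 0.153 with array weights), and it was -1.19 ± 0.49 in S1P2-KO mice (adjusted p = 0.101; -0.97 and 0.0431 with array weights) and -0.63 ± 0.49 in wild-type mice (adjusted p = 0.453). The lowest Dlg4 signal of each genotype came from its hippocampus array with a control ratio above 1. Without those 3 arrays the S1P3-KO difference was -1.37 ± 0.40 (adjusted p = 0.0209), and with the ratio as a covariate it was -0.89 ± 0.57 (adjusted p = 0.455). The call was also lost without S1P3-KO hippocampus replicate 5 alone (-1.37, adjusted p = 0.253), without hippocampus replicate 3 (adjusted p = 0.0589), and without any 1 of the 5 S1P3-KO neocortex arrays (adjusted p = 0.0508 to 0.0797).

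Camk2b, the beta subunit of CaMKII, which also binds actin, was higher in hippocampus. Its lowest, median and highest signals were 15831, 21787 and 23322 in S1P2-KO hippocampus, against 11380, 13269 and 14224 in S1P2-KO neocortex. The S1P3-KO hippocampus arrays gave 19228, 20178, 21311, 21043 and 14474, against 10734, 11111, 13242, 14961 and 13457 in S1P3-KO neocortex. In wild-type mice they were 17819, 20395 and 21723 in hippocampus, against 11610, 12252 and 13018 in neocortex. The tissues did not overlap in S1P2-KO and wild-type mice, and in S1P3-KO mice hippocampus replicate 5 lay below the highest neocortex array. The differences were 0.68 ± 0.06 in S1P2-KO, 0.61 ± 0.09 in S1P3-KO and 0.72 ± 0.06 in wild-type mice (limma adjusted p = 4.52e-12, 1.43e-06 and 7.48e-13), or 1.60-, 1.53- and 1.64-fold.

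Camk2a encodes the alpha subunit, the main CaMKII of forebrain excitatory neurons. Unlike Camk2b, both of its probe sets had negative differences in every genotype, but only the brighter one in S1P3-KO mice was called. Group means of the brighter one ran from 280 to 1565, against 12236 to 21057 for Camk2b. The part of the probe sets in this contrast was not tested. Some of its hippocampus signals lay under 132.6, the level of the filter, where MAS5 values are noisy. Where the Camk2a and Dlg4 probe sets lie in their transcripts is not given in the sources used here. The brighter probe set had a lowest, median and highest signal of 154.4, 848.5 and 1235 in S1P2-KO hippocampus, against 656.6, 1277 and 2739 in S1P2-KO neocortex. Its S1P3-KO hippocampus arrays gave 134.3, 874.3, 250.3, 83.7 and 57.3, against 1227, 1106, 1248, 815.5 and 806.3 in S1P3-KO neocortex. In wild-type mice the values were 81.9, 907.3 and 1705 in hippocampus, against 456.2, 978.5 and 1967 in neocortex. In S1P3-KO mice 4 of the 5 hippocampus arrays lay below all of neocortex, while replicate 2 lay within the neocortex range. Its difference was -2.28 ± 0.61 in S1P3-KO mice (adjusted p = 0.00805), -0.96 ± 0.43 in S1P2-KO mice (adjusted p = 0.141) and -0.68 ± 0.43 in wild-type mice (adjusted p = 0.33). Without the 3 arrays of control ratio above 1 the S1P3-KO difference was -1.99 ± 0.55 (adjusted p = 0.0131), and with the ratio as a covariate -1.70 ± 0.61 (adjusted p = 0.0818). The dimmer probe set differed by -1.92 ± 0.73 in S1P3-KO (adjusted p = 0.0795), -1.28 ± 0.52 in S1P2-KO (adjusted p = 0.0935) and -0.59 ± 0.52 in wild-type mice (adjusted p = 0.515). None of these was called with all arrays and no replicate block. With such a block the dimmer probe set was called in S1P3-KO and S1P2-KO mice. Its signals ran from 26.9 to 1049 in S1P2-KO hippocampus against 560.1 to 1983 in S1P2-KO neocortex, and from 32.3 to 1597 in wild-type hippocampus against 104.5 to 1778 in wild-type neocortex. In S1P3-KO mice they ran from 13.5 to 906.8 in hippocampus against 533.1 to 1113 in neocortex, and leaving out hippocampus replicate 2 brought the S1P3-KO difference to -2.51 (adjusted p = 0.0199).

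Nrgn, the calmodulin-binding protein neurogranin, was lower in hippocampus. Its lowest, median and highest signals were 5887, 11398 and 14002 in S1P2-KO hippocampus, against 9153, 17146 and 21440 in S1P2-KO neocortex. The S1P3-KO arrays were 8930, 12711, 9989, 11651 and 20385 in hippocampus, against 18823, 15321, 15838, 14375 and 18593 in S1P3-KO neocortex. In wild-type mice they were 5503, 7405 and 12625 in hippocampus, against 8262, 11144 and 16482 in neocortex. The tissues overlapped in each genotype, and all 10 S1P2-KO hippocampus arrays lay below the neocortex median. Nrgn differed by -0.56 ± 0.16 in S1P2-KO (adjusted p = 0.0133), -0.46 ± 0.23 in S1P3-KO (adjusted p = 0.205) and -0.47 ± 0.16 in wild-type mice (adjusted p = 0.0413). The wild-type call was lost when any 1 of 10 arrays was left out (hippocampus replicates 1, 2, 3, 4, 6 and 7, neocortex replicates 5, 8, 9 and 10), with adjusted p between 0.0151 and 0.0983 over all 20 omissions.

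The phosphatases moved apart. Ppp3ca, the alpha catalytic subunit of calcineurin, had a lowest, median and highest signal of 10899, 13996 and 16179 in S1P2-KO hippocampus, against 7959, 10388 and 11397 in S1P2-KO neocortex. In S1P3-KO hippocampus the 5 arrays read 14642, 17135, 13821, 12138 and 15482, against 11785, 9047, 10508, 10288 and 11673 in S1P3-KO neocortex. In wild-type mice the values were 11726, 13120 and 15732 in hippocampus, against 8875, 10780 and 12071 in neocortex. Most hippocampus arrays lay above all of neocortex: 9 of 10 in S1P2-KO, 5 of 5 in S1P3-KO and 8 of 10 in wild-type mice. The differences were 0.46 ± 0.07, 0.45 ± 0.10 and 0.31 ± 0.07 in S1P2-KO, S1P3-KO and wild-type mice (limma adjusted p = 2.96e-06, 0.00172 and 0.00159), and the S1P3-KO call was lost with array weights (0.33, adjusted p = 0.0531).

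Ptpn5, the striatal-enriched tyrosine phosphatase STEP, was lower in hippocampus in each genotype. Its lowest, median and highest signals were 1456, 1967 and 2274 in S1P2-KO hippocampus, against 2545, 2911 and 3467 in S1P2-KO neocortex. S1P3-KO hippocampus arrays had 1943, 2054, 1852, 2445 and 2828, against 2825, 3269, 2822, 3128 and 2980 in S1P3-KO neocortex. In wild-type mice they were 1484, 1774 and 2176 in hippocampus, against 2681, 2799 and 3195 in neocortex. The tissues did not overlap in S1P2-KO and wild-type mice, and in S1P3-KO mice only hippocampus replicate 5, the array with the control ratio of 4.46, reached into the neocortex range. The differences were -0.63 ± 0.08 in S1P2-KO, -0.45 ± 0.11 in S1P3-KO and -0.67 ± 0.08 in wild-type mice (limma adjusted p = 4.63e-09, 0.00227 and 8.52e-10). Of 5 tested striatum markers 4 were lower in hippocampus in S1P2-KO, 2 in S1P3-KO and 4 in wild-type mice. The share of all probe sets called in either direction was 14.7%, 12% and 14.6%, in that order. Drd2, a striatum marker, had close medians in the 2 tissues. They were 365.55 in hippocampus and 390.6 in neocortex in S1P2-KO mice, 301.6 and 273.9 in S1P3-KO mice, and 381.95 and 380.2 in wild-type mice. The summed signal of the 6 measured striatum markers of 12 was 5963 to 7976 in S1P2-KO hippocampus against 8900 to 14170 in S1P2-KO neocortex, and 6106 to 7782 in wild-type hippocampus against 8684 to 14950 in wild-type neocortex. In S1P3-KO mice the sum was 5799 to 8471 in hippocampus against 8834 to 11250 in neocortex. The part of striatal tissue in the Ptpn5 difference was not tested.

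**Figure D1:**
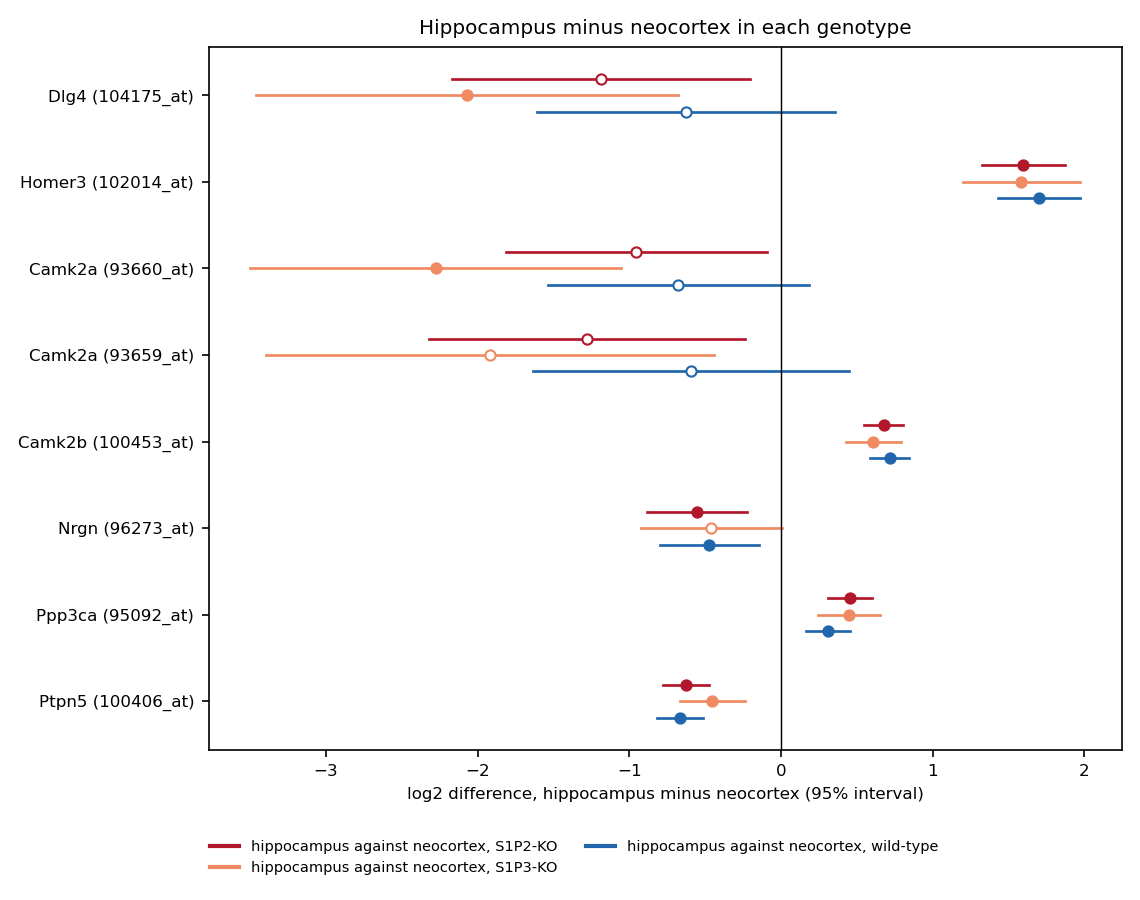
Log2 difference of each tested probe set, hippocampus minus neocortex, with its 95% interval, in S1P2-KO (dark red), S1P3-KO (orange) and wild-type mice (blue). Filled points passed the adjusted p threshold. Homer3, Camk2b and Ppp3ca lie above 0 and Ptpn5 below 0 in each genotype, and the intervals of Dlg4 and Camk2a are the widest.

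Ordered by mean log2 level, all 3 hippocampus groups of Homer3, Camk2b and Ppp3ca stood above all 3 neocortex groups. For Ptpn5 all 3 neocortex groups stood above. For each of these genes the gap at the border between the tissues was the only one between neighbours larger than the greater of their SDs (1.41 for Homer3, 0.54 for Camk2b, 0.30 for Ppp3ca and 0.39 for Ptpn5). The order of Nrgn ran S1P3-KO neocortex, S1P2-KO neocortex, S1P3-KO hippocampus, wild-type neocortex, S1P2-KO hippocampus and wild-type hippocampus, with each gap smaller than the greater SD of its neighbours. Dlg4 ran S1P2-KO, S1P3-KO and wild-type neocortex, then wild-type, S1P2-KO and S1P3-KO hippocampus, again with no gap above the greater SD. The dimmer Camk2a probe set had the order of Dlg4 and no such gap either. For the brighter Camk2a probe set the only gap above the greater SD, 1.56, separated S1P3-KO hippocampus, the lowest group, from wild-type hippocampus.

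**Figure D2:**
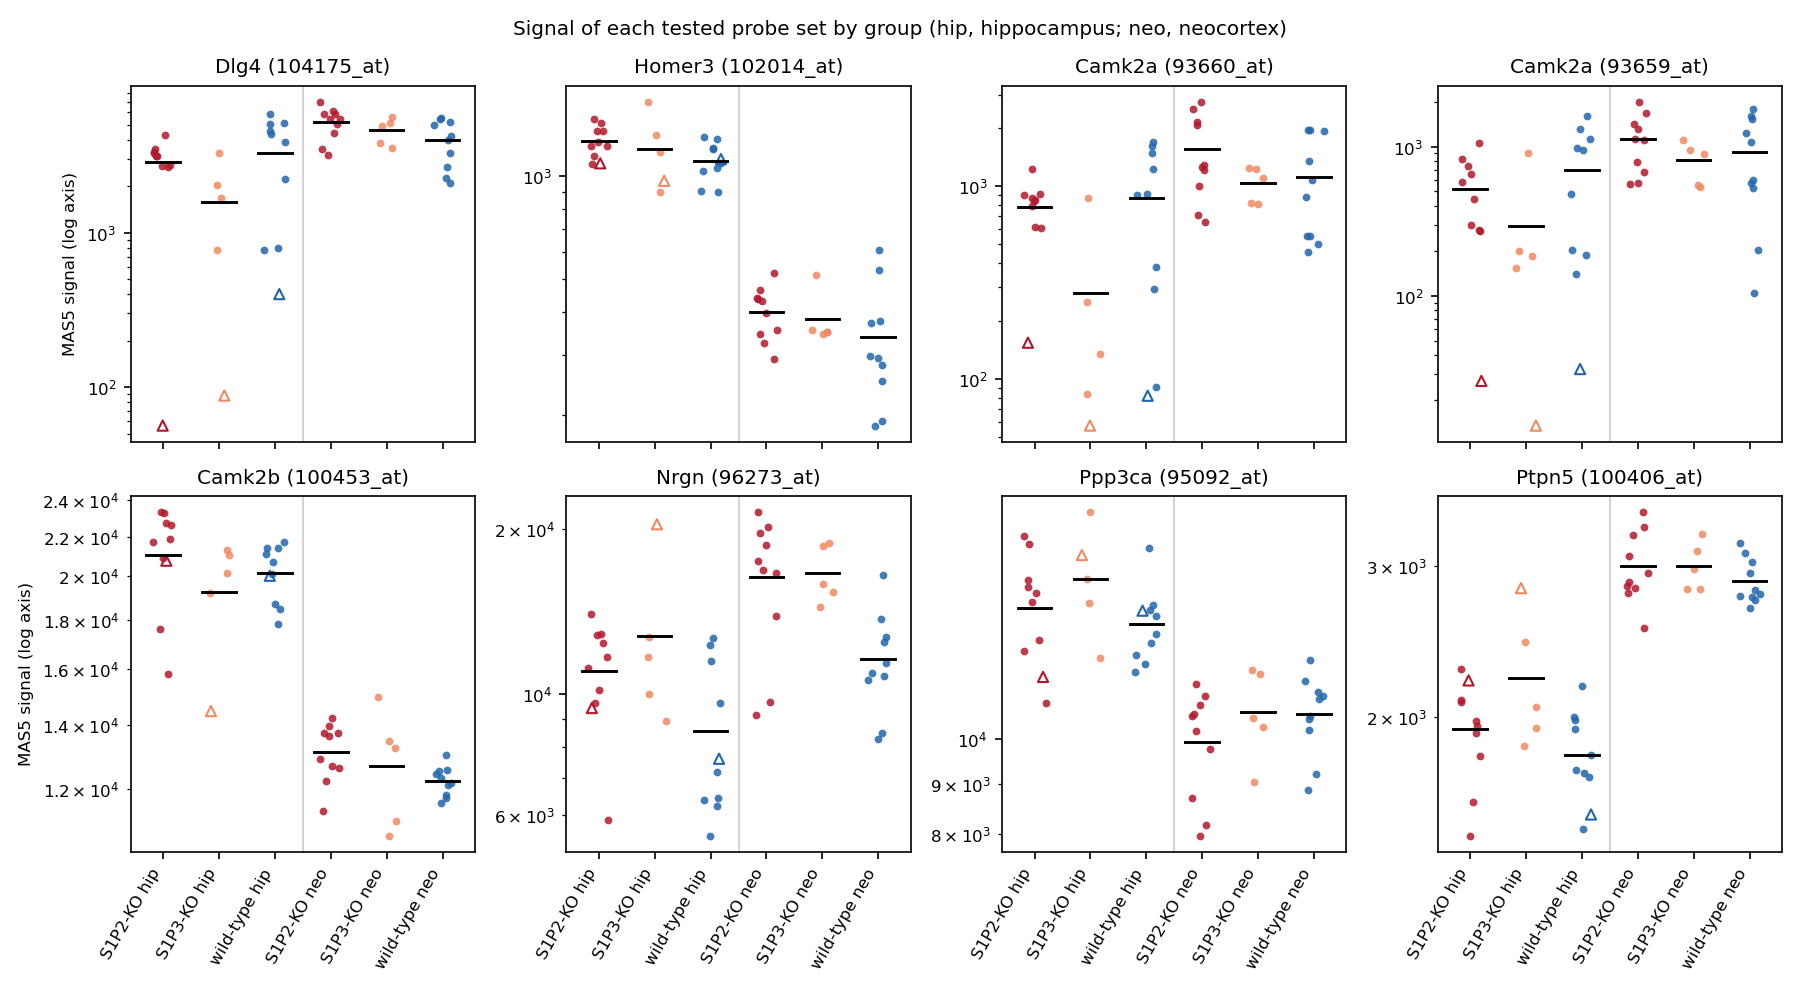
MAS5 signal on a log axis of each tested probe set, 1 point per array, in S1P2-KO, S1P3-KO and wild-type hippocampus (hip) and then neocortex (neo), with the group mean as a black bar. Open triangles are the 3 hippocampus arrays with a 3' to 5' control ratio above 1. Homer3, Camk2b and Ptpn5 separate by tissue, while Dlg4 and Camk2a reach below 100 on single hippocampus arrays.

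For other genes of the same machinery, counts of calls stand beside 14.6% of all probe sets called in wild-type mice. Among 13 tested postsynaptic scaffold genes outside the 7, wild-type hippocampus had 3 higher and 4 lower, with Dlg1 (SAP97, a relative of PSD-95) at -0.73 ± 0.08 and Cacng2 (stargazin, an AMPA receptor auxiliary subunit) at -0.97 ± 0.18 (limma adjusted p = 2.24e-10 and 3.77e-05). Of 9 other calcium and calmodulin kinases 3 were higher and 2 lower, among them Prkcb, a protein kinase C isoform, at -0.33 ± 0.05 and Prkce, another isoform, at 0.60 ± 0.12 (adjusted p = 7.71e-07 and 0.000201). The shares in the calmodulin buffer, phosphatase and glutamate receptor lists were near or below that background and are no result about those lists. Of 6 other genes for calmodulin and its neuronal buffers, 0 were higher and 1 was lower, the growth cone protein Basp1 at -0.25 ± 0.05 (adjusted p = 0.000653). Of 16 other synaptic phosphatase genes 0 were higher and 1 was lower, Rcan1, an inhibitor of calcineurin, at -0.43 ± 0.07 (adjusted p = 2.24e-06). The lists were chosen with earlier results of these data known and share genes (Rcan1 and Homer1 are also in the activity-induced list). Among 11 glutamate receptor genes, Gria1, an AMPA receptor subunit, was higher (0.85 ± 0.24, adjusted p = 0.0105) and none was lower. Of 7 activity-induced transcripts 5 were lower, with Egr1, a transcription factor induced by neuronal activity, at -1.50 ± 0.16 (adjusted p = 1.7e-10). Counting members, the list medians in wild-type mice were -0.08 for scaffolds, 0.13 for kinases, -0.12 for calmodulin buffers, 0.00596 for phosphatases, 0.08 for glutamate receptors and -0.80 for activity-induced transcripts, beside 0.00575 over all probe sets.

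In S1P2-KO hippocampus against S1P2-KO neocortex, 4 scaffold genes were higher and 5 lower of 15, and 5 kinase genes were higher and 3 lower of 11, members included, beside 14.7% of all probe sets. Camk2d, the delta subunit of CaMKII, was among the lower ones (-1.07 ± 0.19, adjusted p = 4.28e-05). In S1P3-KO mice, again with members included, 4 scaffold genes were higher and 6 lower of 15, beside 12% of all probe sets. Of 11 kinase genes there, 3 were higher and 3 lower. The wild-type counts above leave the members out, so the counts of the genotypes are not alike. Homer1, which yields a long scaffold form and a short activity-induced form, was lower there (-1.58 ± 0.34, adjusted p = 0.000933), opposite to Homer3.

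In the knockouts no member passed the limma test in either tissue. In S1P2-KO against wild-type neocortex 0 of 8 member probe sets were called, and 0% of all 8534, while 2 of the 8 and 8.74% of all had an unadjusted p under 0.05. In S1P2-KO against wild-type hippocampus 0 of 8 were called (0% of all), with 1 of 8 and 5.54% under 0.05. In S1P3-KO against wild-type neocortex 0 of 8 were called (0% of all), with 1 of 8 and 10.5% under 0.05. In S1P3-KO against wild-type hippocampus 0 of 8 were called, against 0.0352% of all, with 3 of 8 and 9.54% under 0.05. Both knockouts were set against the same wild-type arrays of each tissue, so these comparisons are not independent. The median difference of the 8 probe sets was 0.36 in S1P2-KO neocortex, 0.08 in S1P2-KO hippocampus, 0.09 in S1P3-KO neocortex and 0.01 in S1P3-KO hippocampus, beside -0.00629, -0.00316, -0.0016 and -0.01 over all probe sets.

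Nrgn had the smallest p-value of the members in all 4 knockout comparisons but 0 calls among them. In neocortex its lowest, median and highest signals were 9153, 17146 and 21440 in S1P2-KO mice, against 8262, 11144 and 16482 in wild-type mice, and S1P3-KO arrays lay between 14375 and 18823. In neocortex 8 of 10 S1P2-KO arrays and 5 of 5 S1P3-KO arrays exceeded the median of wild-type arrays. The differences were 0.47 ± 0.14 in S1P2-KO (p = 0.00172, limma adjusted p = 0.245) and 0.55 ± 0.17 in S1P3-KO neocortex (p = 0.00272, adjusted p = 0.219). In hippocampus the same held for 9 of 10 S1P2-KO and 5 of 5 S1P3-KO arrays, with a wild-type median of 7405 and differences of 0.39 ± 0.17 (limma adjusted p = 0.857) and 0.56 ± 0.21 (limma adjusted p = 0.416). The highest S1P3-KO hippocampus array, 20385, was replicate 5 with the control ratio of 4.46. Without the 3 arrays of control ratio above 1 the S1P3-KO hippocampus difference was 0.38 ± 0.22 (limma adjusted p = 0.69). The summed signal of the 9 measured general neuron markers of 10 was 103600 to 114300 in S1P2-KO, 100100 to 113900 in S1P3-KO and 98690 to 121500 in wild-type neocortex. In hippocampus it was 86900 to 97920 in S1P2-KO, 89690 to 99660 in S1P3-KO and 83730 to 101200 in wild-type mice. The part of cell makeup in the Nrgn values was not tested.

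Among the scaffolds, Dlg4 in neocortex differed by 0.43 ± 0.17 in S1P2-KO (interval 0.07 to 0.78, limma adjusted p = 0.448) and by 0.26 ± 0.21 in S1P3-KO mice (-0.17 to 0.69, limma adjusted p = 0.739). The S1P2-KO arrays ran from 3186 to 6990 and the S1P3-KO arrays from 3530 to 5612, against 2093 to 5527 in wild-type neocortex, so all overlapped. In hippocampus the Dlg4 interval was -1.45 to 1.18 in S1P2-KO and -2.79 to 0.43 in S1P3-KO mice, which is too wide to place a difference of either sign. Homer3 had positive differences in all 4 comparisons, between 0.09 ± 0.12 in S1P3-KO hippocampus and 0.29 ± 0.17 in S1P2-KO neocortex, with adjusted p of 0.626 or more.

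Among the kinases, the brighter Camk2a probe set differed by -1.53 ± 0.62 in S1P3-KO against wild-type hippocampus (p = 0.0197, limma adjusted p = 0.443). Its 5 S1P3-KO signals were all under 907.3, the median of wild-type hippocampus, though wild-type arrays reached down to 81.9. Leaving out the 3 arrays of control ratio above 1 gave -1.53 ± 0.54 (limma adjusted p = 0.421), and the ratio as a covariate gave -1.10 ± 0.59 (limma adjusted p = 0.624). The dimmer Camk2a probe set gave -1.21 ± 0.73 (limma adjusted p = 0.594). In S1P2-KO neocortex both probe sets had positive differences, 0.52 ± 0.29 and 0.54 ± 0.36 (limma adjusted p = 0.617 and 0.692). Camk2b was measured more tightly: its intervals were -0.01 to 0.21 in S1P2-KO and -0.09 to 0.18 in S1P3-KO neocortex, and -0.09 to 0.21 in S1P2-KO and -0.25 to 0.12 in S1P3-KO hippocampus.

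Among the phosphatases, Ppp3ca intervals were similarly narrow, with the largest difference 0.16 ± 0.09 in S1P3-KO hippocampus (-0.03 to 0.35, limma adjusted p = 0.581). Ptpn5 differed by 0.28 ± 0.12 in S1P3-KO against wild-type hippocampus (p = 0.0214, limma adjusted p = 0.446), where its 5 S1P3-KO signals were all over 1774, the median of wild-type hippocampus. Its highest S1P3-KO array, 2828, was again replicate 5, and without the 3 arrays of control ratio above 1 the difference was 0.17 ± 0.11 (limma adjusted p = 0.749). In S1P2-KO mice Ptpn5 intervals were -0.06 to 0.17 in neocortex and -0.10 to 0.29 in hippocampus.

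**Figure D3:**
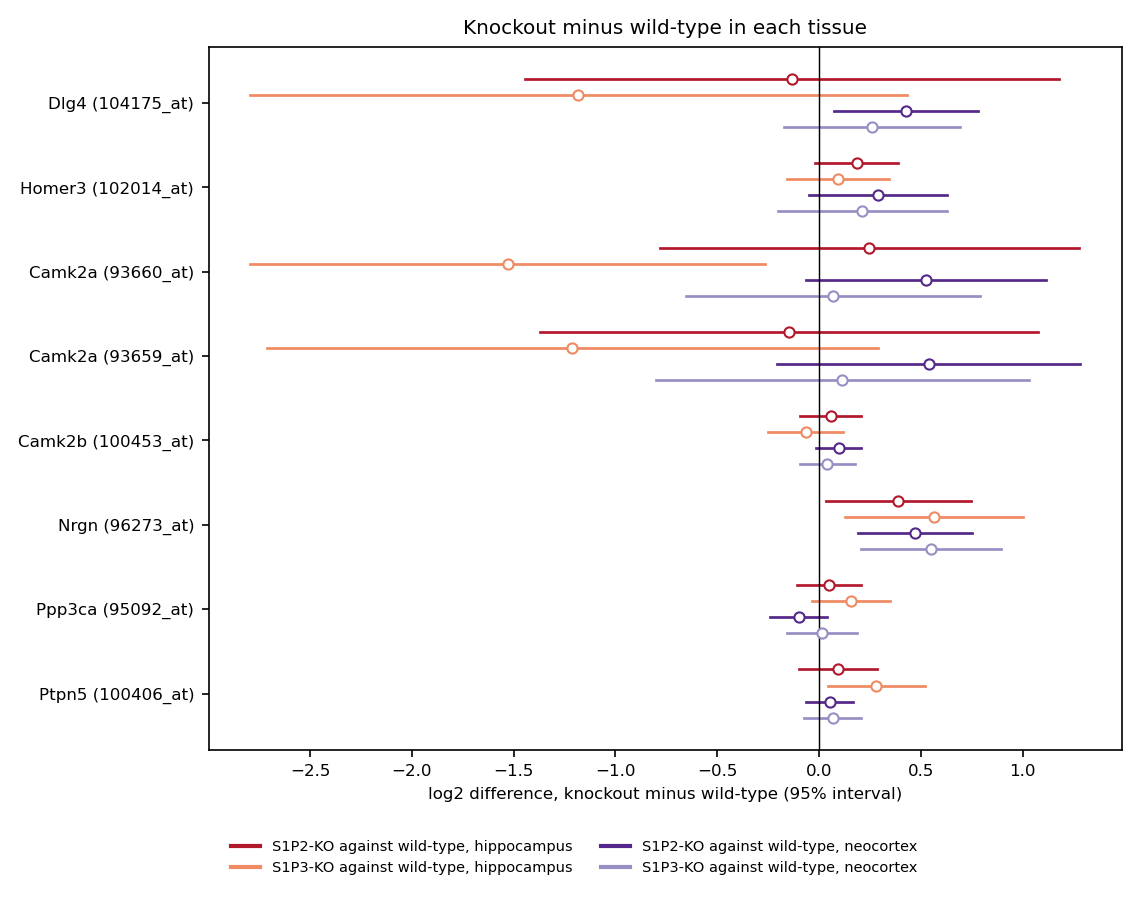
Log2 difference of each tested probe set, knockout minus wild-type, with its 95% interval, for S1P2-KO and S1P3-KO in hippocampus (dark red, orange) and in neocortex (dark and light purple). All points are open because none passed the adjusted p threshold. Nrgn lies above 0 in all 4 comparisons, and Dlg4 and Camk2a have the widest intervals in hippocampus.

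No gene of the 6 lists of scaffolds, kinases, calmodulin buffers, phosphatases, glutamate receptors and activity-induced transcripts was called in any of the 4 knockout comparisons. Among calmodulin buffers in S1P2-KO neocortex, Pcp4l1, a calmodulin regulator, followed Nrgn with 0.30 ± 0.12 (limma adjusted p = 0.448), and the list median was 0.08 over 7 genes. The glutamate receptor list had a median of 0.16 over 11 genes in S1P2-KO neocortex, where Grin2b, an NMDA receptor subunit, gave 0.38 ± 0.14 (limma adjusted p = 0.399). In S1P3-KO hippocampus that list had 2 genes with positive and 9 with negative differences and a median of -0.22. The activity-induced list gave Fos, an immediate early transcription factor, at -1.32 ± 0.27 in S1P2-KO neocortex (limma adjusted p = 0.0764). Gfap, the astrocyte filament protein, was higher in S1P3-KO hippocampus (0.84 ± 0.14, limma adjusted p = 0.0273). No Gfap probe set was called there without the 3 arrays of control ratio above 1, with only S1P3-KO and wild-type arrays in the fit, or when S1P3-KO replicate 1 or 4 or wild-type replicate 1, 3 or 7 was left out. Median Gfap signals were 3070 in S1P2-KO, 4707 in S1P3-KO and 2379 in wild-type hippocampus. In neocortex they were 1501, 1448.5 and 1198, in that order. Gfap was not called in S1P2-KO against wild-type mice in either tissue. The summed signal of the 9 measured astrocyte markers of 10 was 40790 to 50370 in S1P3-KO hippocampus, against 40880 to 46920 in wild-type hippocampus.

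Set against each other, S1P2-KO and S1P3-KO mice had 0 of 8 member probe sets called in neocortex (0% of all) and 0 of 8 in hippocampus (0% of all). An unadjusted p under 0.05 was reached by 0 of 8 in neocortex (5.93% of all) and 1 of 8 in hippocampus (11.5% of all). That one was the brighter Camk2a probe set in hippocampus, with 1.78 ± 0.62 (p = 0.00772, limma adjusted p = 0.295), and its signals ran from 154.4 to 1235 in S1P2-KO and from 57.3 to 874.3 in S1P3-KO arrays. Nrgn differed by -0.08 ± 0.17 in neocortex and -0.17 ± 0.21 in hippocampus (intervals -0.42 to 0.27 and -0.61 to 0.26). Whether a knockout effect differed between hippocampus and neocortex was tested as an interaction. For the S1P2-KO effect 0 of 8 were called (0% of all), with 0 of 8 and 2.6% of all under an unadjusted p of 0.05. For the S1P3-KO effect 0 of 8 were called (0% of all), with 1 of 8 and 5.13% under 0.05. That one was again the brighter Camk2a probe set, at -1.60 ± 0.74 (limma adjusted p = 0.875).

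Females were set against males within each tissue over all genotypes. In neocortex 0 of 8 member probe sets were called, against 0.0586% of all, and in hippocampus 0 of 8, against 0.0586%. No member reached an unadjusted p under 0.05 in either tissue, compared with 6.15% of all probe sets in neocortex and 5.13% in hippocampus. The largest differences were 0.25 ± 0.33 for the dimmer Camk2a probe set in neocortex and -0.74 ± 0.57 for Dlg4 in hippocampus (limma adjusted p = 0.942 and 0.959).

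The members differed in how much arrays of 1 group varied. The coefficient of variation (SD over mean) within a group lay between 3.51% and 14.5% for Camk2b, 8.87% and 12.8% for Ppp3ca, and 6.1% and 18.3% for Ptpn5. It lay between 10.8% and 40.7% for Homer3 and between 12.1% and 35.5% for Nrgn. Dlg4 ranged from 19.4% to 33.4% in the neocortex groups and from 38.3% to 77.8% in the hippocampus groups. The brighter Camk2a probe set ranged from 20.8% to 56.9% in neocortex and from 35.9% to 122% in hippocampus. Without the 3 arrays of control ratio above 1 the coefficient of Dlg4 was 16% in S1P2-KO, 53.4% in S1P3-KO and 52.4% in wild-type hippocampus. Among arrays of lower ratio, Dlg4 was lowest at 777.6 on S1P3-KO replicate 3 (ratio 0.42), 774.6 on wild-type replicate 6 (0.26) and 795.4 on wild-type replicate 3 (0.75, the highest ratio after those 3). The part of RNA quality in these values was not tested. Choroid plexus markers also varied widely in hippocampus, where the summed signal of the 5 measured of 11 was 4002 to 42340 in S1P2-KO, 4692 to 38620 in S1P3-KO and 5002 to 49610 in wild-type arrays. Its part in the spread of Dlg4 and Camk2a was not tested.

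Dlg4 and Camk2a were high and low on the same arrays. After the mean of each group was subtracted, 56 relations between member probe sets were computed, 28 in each tissue over 25 arrays, with 1e+05 permutations of the arrays within groups and 2-sided p-values. At a Benjamini-Hochberg adjusted p of r under 0.05, 3 passed in hippocampus and 7 in neocortex. The share of other probe set pairs that would pass was not computed. Because the arrays share their RNA quality and scaling, these counts are no result about the members as a set. In hippocampus Dlg4 and the brighter Camk2a probe set had r = 0.802 and rho = 0.752 (permutation p = 4e-05 and 0.00029, adjusted 0.000373 and 0.00271). Leaving out the 2 arrays farthest in Dlg4 gave r = 0.825, and the 22 arrays with a control ratio of 1 or less gave 0.751. In neocortex the same pair had r = 0.825 and rho = 0.872 (permutation p = 2e-05 for both, adjusted 0.00028 for both), with r = 0.808 after leaving out the 2 farthest arrays. The dimmer Camk2a probe set had r = 0.873 and rho = 0.774 with Dlg4 in hippocampus (adjusted permutation p = 0.00028 and 0.000672) and r = 0.84 and rho = 0.852 in neocortex (adjusted permutation p = 0.000373 and 0.00028). Without the 2 farthest arrays these r were 0.837 in hippocampus and 0.831 in neocortex. The 2 Camk2a probe sets, which measure the same gene, had r = 0.916 in hippocampus and 0.846 in neocortex with each other (adjusted permutation p = 0.00028 for both).

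Nrgn was correlated with them over the neocortex arrays. Against the brighter Camk2a probe set it had r = 0.715 and rho = 0.664 (permutation p = 0.00018 and 0.00071, adjusted 0.00144 and 0.00568), and r = 0.668 after leaving out the 2 farthest arrays. Against the dimmer one r was 0.501 and rho 0.555 (adjusted permutation p = 0.0482 and 0.0302), and against Dlg4 r was 0.531 and rho 0.489 (adjusted permutation p = 0.0477 and 0.0763). Within the S1P2-KO arrays of neocortex these r were 0.759, 0.703 and 0.777, within the 5 S1P3-KO arrays 0.124, -0.0419 and 0.142, and within the wild-type arrays 0.771, 0.528 and 0.419. In hippocampus the r of Nrgn with these 3 probe sets was 0.342, 0.25 and 0.089, none past the threshold. Homer3 and Nrgn had r = -0.489 and rho = -0.485 in neocortex (adjusted permutation p = 0.0482 and 0.0819) and r = -0.328 after leaving out the 2 arrays farthest in Homer3, a value that was not tested. Nrgn and Ppp3ca in hippocampus had r = 0.49 and rho = 0.59 (adjusted permutation p = 0.0676 and 0.0156). Arrays of the same number in the 2 tissues, which may or may not come from 1 mouse, had r of 0.694 and 0.764 over 25 pairs for the brighter and dimmer Camk2a probe sets, 0.621 for Nrgn and 0.523 for Dlg4, given as a description. For Homer3 that r was -0.0393, and for Camk2b, Ppp3ca and Ptpn5 it was 0.303, 0.211 and 0.166.

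**Figure D4:**
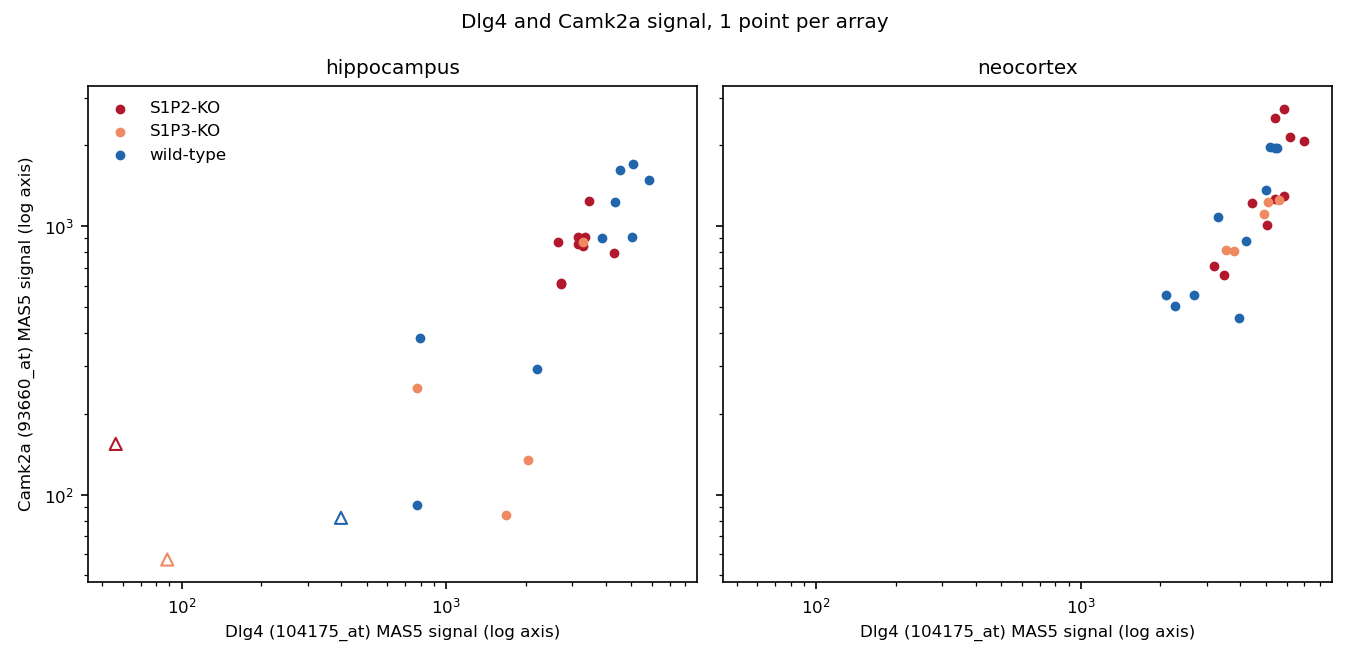
Signal of Dlg4 (horizontal) and the brighter Camk2a probe set (vertical), both on log axes, 1 point per array, for hippocampus (left) and neocortex (right), coloured by genotype. Open triangles are the 3 hippocampus arrays with a 3' to 5' control ratio above 1. Points run along a rising diagonal in both tissues. Hippocampus arrays of each genotype reach below all neocortex arrays, in S1P2-KO only through the array shown as an open triangle.

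**Figure D5:**
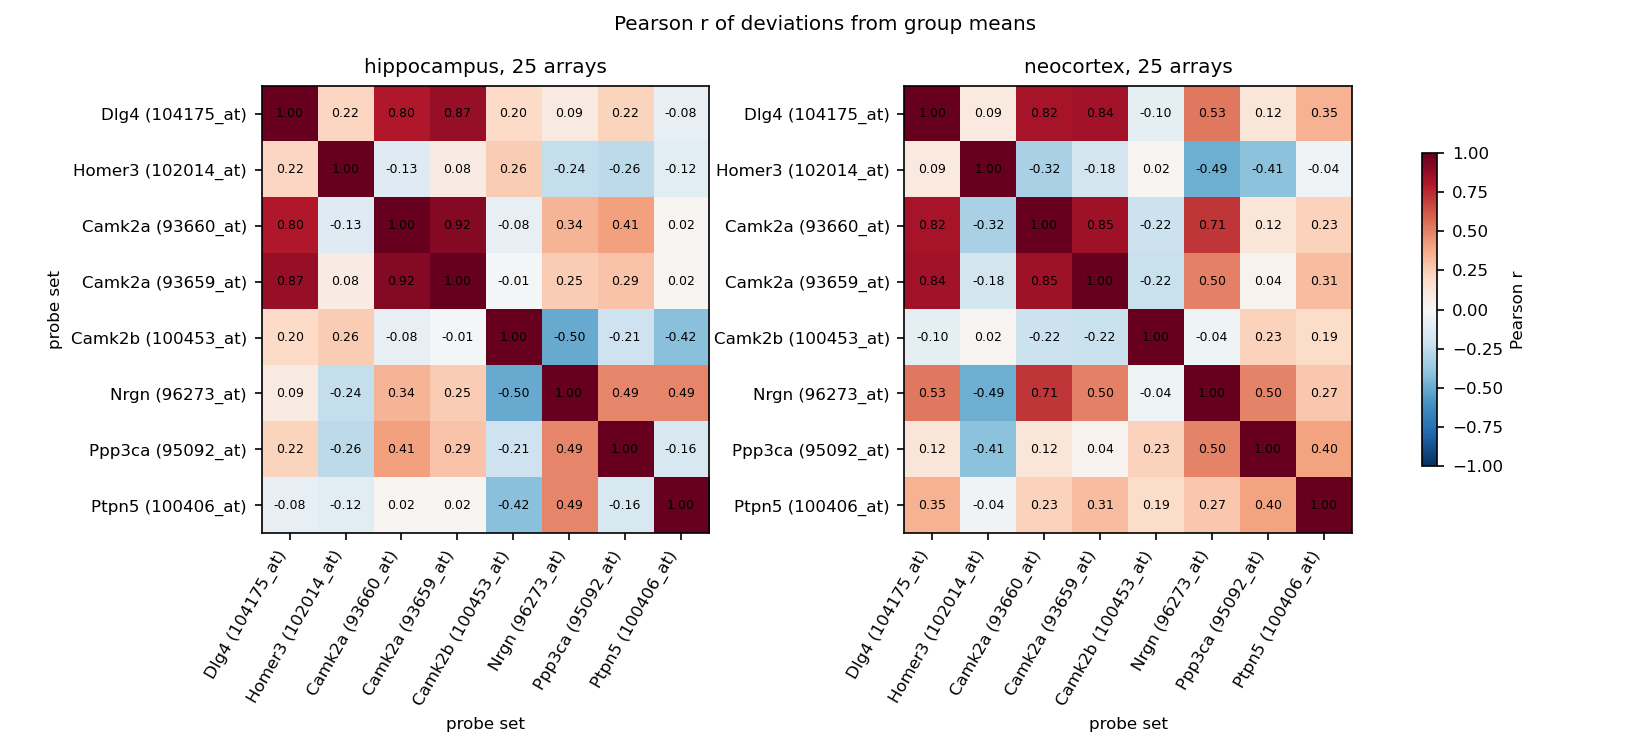
Pearson r between member probe sets over 25 hippocampus arrays (left) and 25 neocortex arrays (right), after subtraction of each group mean. Red is positive and blue negative. Dlg4 and both Camk2a probe sets form the block of high values in both tissues, from 0.802 to 0.916, and Nrgn reaches 0.715 with Camk2a in neocortex.

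The genes most like each member were found by Pearson r over the 50 arrays after subtraction of group means, given here as a description because the arrays share their RNA quality and scaling. Dlg4 was closest to Ywhag, a 14-3-3 protein (r = 0.934), and to Arf3, a small GTPase (0.932). These had r of 0.801 and 0.855 over arrays with a control ratio of 1 or less. Camk2a was closest to Kcna1, a voltage-gated potassium channel (0.871), and to the imprinted gene Peg3 (0.851). Nrgn was closest to Baiap2, which encodes the postsynaptic protein IRSp53 (0.882), and to Spred2, an inhibitor of Ras signalling (0.826). Ppp3ca was closest to Ppp1cb, a catalytic subunit of protein phosphatase 1 (0.809), and to Nptn, a synaptic adhesion protein (0.798). Camk2b was closest to Hpca, the neuronal calcium sensor hippocalcin (0.688), and to Tex264 (0.675). Homer3 had weaker neighbours, Prkcd (0.641) and Atp5g2, a subunit of the mitochondrial ATP synthase (0.557), and its r with Prkcd was 0.435 in hippocampus and 0.762 in neocortex. Ptpn5 had the weakest, Tpm1, a tropomyosin (0.544), and Epop (0.531).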

How the data were processed

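Gene expression was measured on 50 arrays, 25 per tissue; genotype, sex and replicate number come from the titles. Per the labels' protocols, 12 µg of TRIzol-extracted total RNA was used for biotinylated cRNA. For every array the authors deposited an intensity per probe set, which per the submitters' processing notes is a MAS5 signal (version not given in the sources used here). All deposited intensities were already scaled (2% trimmed mean 1000.56 to 1000.66, medians 299.6 to 413.8), so none was rescaled. MAS5 subtracts mismatch signal, which makes low values noisy. Precision is limited by the number of arrays.

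Signals were taken as log2(signal + 30.7), the offset being their 10th percentile, which understates differences of dim genes. Probe sets with a mean above the 30th percentile (132.6) were tested, 66 controls aside. The platform annotation gives 1 symbol to 10855 probe sets, several to 396 and none here to 1237, and a list gene stands by its brightest probe set. limma 3.58.1 in R 4.3.3 (lmFit, eBayes with trend, Benjamini-Hochberg) was fitted per tissue over 3 genotypes with sex, and over all 50 arrays, with sex centred within tissue, for tissue differences and interactions. The fit was tested on simulated data.

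Members, 18 gene lists and tests were chosen with earlier results of these data known. Named are all member probe sets, up to 4 called genes per list (otherwise the 2 of smallest p) and the 2 genes most like each member. The labels call replicates biological without saying how mice were housed, bred or processed, so p-values set differences against the spread between these samples only. Alternatives were a pseudocount of 100, no filter, quantile normalization, array weights, the control ratio as a covariate, omission of the 3 arrays with a ratio above 1, no sex covariate, a replicate block, the compared genotypes alone, and each array left out. A tissue difference at the level of males was added after seeing the data.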

Additional observations from a re-analysis of the deposited data

Results flagged for a closer look

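In 54 sets of signals (9 probe sets in 6 groups), 5 held an array that stood apart from the rest of its group. Chance would mark about 1 in 20 sets if they were independent. These sets share arrays, and both Camk2a probe sets were marked on the same array, so the 5 cannot be held against that rate. Dlg4 on S1P2-KO hippocampus replicate 7 was 56.4, the lowest of 10, with the next array at 2648. That array had a 3' to 5' control ratio of 1.37. Homer3 on S1P3-KO neocortex replicate 2 was 511.8, the highest of 5, with the next at 354.1. Camk2a on S1P3-KO hippocampus replicate 2 was the highest of 5 in both probe sets, with 874.3 against a next value of 250.3 (brighter probe set) and 906.8 against 198.6 (dimmer probe set), at a control ratio of 0.408. The same array had the highest Dlg4 signal of its group, 3288. Ppp3ca on wild-type hippocampus replicate 9 was 15732, the highest of 10, with the next at 13744. No knockout effect on the 8 tested probe sets passed the interaction test between tissues (limma, smallest adjusted p = 0.875).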

How the results depend on the processing

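Of the alternative values of the tested member probe sets (single omissions aside), 808 kept their direction and side of the threshold, 8 lost the call, 3 gained it and 21 changed sign. None of the sign changes was in a called difference, and their causes were not tested. With array weights, S1P2-KO against wild-type neocortex had 8 calls in place of 0, S1P2-KO against S1P3-KO hippocampus 2 in place of 0, and the S1P3-KO tissue comparison 632 in place of 1023, Dlg4 lost its S1P3-KO tissue call (-1.422, adjusted p = 0.153) and gained one in S1P2-KO mice (-0.9693, 0.0431). Weights turned the S1P3-KO neocortex differences of Camk2a to -0.09717 and -0.2408 (brighter and dimmer), Camk2b in S1P3-KO hippocampus to 0.03747, the Nrgn S1P3-KO interaction to -0.1444, and the sex differences of Camk2b in neocortex to -0.0117, and of Ptpn5 and dimmer Camk2a in hippocampus to -0.01067 and 0.1452. With the control ratio as a covariate, calls were 1 for S1P2-KO and 23 for S1P3-KO against wild-type neocortex, 1 for S1P2-KO against S1P3-KO in either tissue, and 659 for the S1P3-KO tissue comparison. That covariate gave -0.03106 for brighter Camk2a in S1P3-KO neocortex, -0.004775 for Dlg4 in S1P2-KO against S1P3-KO hippocampus, -0.1425 for the Nrgn S1P3-KO interaction and 0.07651 for dimmer Camk2a between sexes in hippocampus. With no array left out but only S1P3-KO and wild-type arrays in the fit, S1P3-KO against wild-type hippocampus had 0 calls in place of 3. Without the arrays above 1, with all genotypes in the fit, it had 1 call. That omission turned signs for Dlg4 (0.07072) in S1P2-KO and Camk2b (0.01726) in S1P3-KO hippocampus, and for Nrgn (0.02431) in S1P2-KO against S1P3-KO hippocampus. It also turned the Ptpn5 S1P2-KO (-0.01116) and Nrgn S1P3-KO (-0.169) interactions, and dimmer Camk2a (0.04275) and Ptpn5 (-0.05271) between sexes in hippocampus. No neocortex array exceeded 1, so that omission gives no value there. Quantile normalization gave -0.04177 for the Nrgn S1P3-KO interaction and, between sexes, -8.591e-05 for Camk2b in neocortex and -0.002851 for Ptpn5 in hippocampus. Without the filter on dim probe sets the tissue calls of Nrgn in wild-type (adjusted p = 0.056) and Dlg4 in S1P3-KO mice (0.0561) were lost. At the level of males, chosen after seeing the data, the S1P3-KO tissue differences were -1.68 for Dlg4 (adjusted p = 0.206) and -2.08 for brighter Camk2a (0.0501). Whether same-numbered arrays of the 2 tissues share a mouse is not given. Their deviations correlated over 0.1 in 9 of 10 S1P2-KO, 2 of 5 S1P3-KO and 6 of 10 wild-type pairs, and 3, 1 and 3 arrays correlated best with their own number, so the numbers were not used as pairs. With same-numbered arrays of a genotype as a replicate block, tissue calls were 1461 in S1P2-KO, 1302 in S1P3-KO and 1525 in wild-type mice. They stood in place of 1255, 1023 and 1243. Dimmer Camk2a was then called between tissues in S1P2-KO (limma adjusted p = 0.0489) and S1P3-KO mice (0.0402), and the interactions kept a count of 0. Within a tissue the block instead joined same-numbered arrays of different genotypes, which are different mice. There S1P3-KO against wild-type hippocampus kept a count of 3 and the other knockout comparisons a count of 0. Those counts say nothing about a pairing of the tissues. Leaving out single arrays, calls ranged from 0 to 8 in S1P2-KO against wild-type neocortex (8 without wild-type replicate 6), 0 to 1 in hippocampus, 0 to 10 in S1P3-KO against wild-type neocortex (10 without S1P3-KO replicate 3), 0 to 12 in hippocampus (12 without S1P3-KO replicate 3), 0 to 1 and 0 to 4 in S1P2-KO against S1P3-KO neocortex and hippocampus, and 676 to 1203 in the S1P3-KO tissue comparison (676 without hippocampus replicate 5). Differences that crossed 0 ranged as follows. S1P2-KO hippocampus gave -0.468 to 0.3674 for Dlg4 and -0.05758 to 0.4622 and -0.499 to 0.183 for brighter and dimmer Camk2a. S1P3-KO neocortex gave -0.06555 to 0.1905 and -0.1314 to 0.2688 for Camk2a, -0.01836 to 0.1034 for Camk2b and -0.02947 to 0.09908 for Ppp3ca, and S1P3-KO hippocampus -0.03032 to 0.2102 for Homer3 and -0.1164 to 0.02289 for Camk2b. S1P2-KO against S1P3-KO gave -0.006319 to 0.1154 for Camk2b, -0.1423 to 0.01175 for Nrgn and -0.05309 to 0.008606 for Ptpn5 in neocortex and -0.02484 to 0.2156 for Homer3 in hippocampus. The interactions gave -0.1663 to 0.02355 for Nrgn (S1P2-KO), and -0.2433 to 0.02459 for Homer3 and -0.1612 to 0.1209 for Nrgn (S1P3-KO). Between sexes they were -0.02559 to 0.1143 for Dlg4, -0.006381 to 0.1873 for brighter Camk2a and -0.009225 to 0.03911 for Camk2b in neocortex, and -0.4229 to 0.1329 for dimmer Camk2a and -0.009232 to 0.05785 for Ptpn5 in hippocampus. The 5 arrays per S1P3-KO group limit the precision there, and signal over background was not analysed here.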
